A study of Mus musculus with 6 samples.

Results

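The genes that set and read the oxygen response were examined in hematopoietic stem cells (HSCs) of mice treated with IGF1. They were chosen by name as 9 gene symbols, Hif1a, Arnt, Epas1, Vhl, Egln1, Egln2, Egln3, Hif1an and Vegfa, and all 9 were found among the 21878 rows of each library. HSCs, gated as CD34-Flk2-Lineage-Sca1+c-Kit+ cells, came from the bone marrow of wild-type mice, and the 3 IGF1 libraries were from mice injected once under the skin with IGF1 at 200 µg/kg and examined at day 1. The 3 control libraries were from vehicle-treated mice. The labels of the treatment and the design name IGF1, while the text on extraction speaks of irradiated mice, and IGF1 was taken here. Age is not given in the sources used here, and since nothing says that the libraries came from separate mice, the p-values measure only the spread between these libraries.

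Hypoxia-inducible factor (HIF) is a pair of proteins, an alpha subunit encoded by Hif1a or Epas1 and the constant partner encoded by Arnt. In the presence of oxygen the prolyl hydroxylases encoded by Egln1, Egln2 and Egln3 modify the alpha subunit, which the Vhl protein then binds and passes to the proteasome, while the asparaginyl hydroxylase encoded by Hif1an blocks its contact with the coactivators Ep300 and Crebbp. Much of this control acts on protein rather than on RNA. Long-lived HSCs reside in a marrow poor in oxygen and rely on glycolysis, to which HIF contributes, and Egln3, Egln1 and Vegfa are themselves known as HIF target genes.

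All 9 genes are protein-coding in the GENCODE annotation of GRCm38. Hif1a lies at chr12:73901375-73947530 on the plus strand and Arnt at chr3:95434388-95497240 on the plus strand. Egln1 lies at chr8:124908587-124949324 on the minus strand, Egln2 at chr7:27158658-27166802 on the minus strand and Egln3 at chr12:54178981-54203860 on the minus strand. Vhl lies at chr6:113623959-113631633 and Hif1an at chr19:44562850-44576274, both on the plus strand, Epas1 at chr17:86753700-86833410 on the plus strand and Vegfa at chr17:46016993-46032369 on the minus strand. Exons of Hif1a share 330 bases with the antisense gene Gm15283 and 148 bases with the protein-coding gene Gm49321 on the same strand. A part of its reads could thus belong to Gm49321. The libraries were stranded, so reads of Gm15283 could enter only where strand was not kept in the counting. Exons of Egln2 share 11 bases with Cyp2t4 on the other strand.

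HIF binds DNA at a short core, ACGTG or GCGTG, and it was searched on both strands of the members' promoters because some of these genes are themselves HIF targets. RefSeq promoter windows of 300 bases (250 before and 50 after the start, GRCm38.p6) were found for 8 of the 9 genes, in 10 windows. ACGTG on either strand was present in 5 of the 10 windows, against 19.6% of 32851 promoter windows and 49.2% of the 61 windows of the HIF target genes listed later. GCGTG was present in 5 of the 10 windows, against 32.4% of all windows and 62.3% of those of the HIF target genes. The matches before the start are printed with up to 20 bases on each side, on the strand of the gene, with the core in capitals. In Hif1a the first match, CACGTG, is its own reverse complement and holds the core on both strands. The Vegfa match is on the opposite strand, in the second of its windows (chr17:46025114-46025413). This window lies inside the Vegfa gene, and the first Vegfa window held neither core.
Hif1a (chr12:73907712-73907757, plus strand, 135 bases before the start): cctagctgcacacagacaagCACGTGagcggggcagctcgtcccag
Hif1a (chr12:73907777-73907821, plus strand, 70 bases before the start): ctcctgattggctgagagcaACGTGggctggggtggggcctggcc
Egln1 (chr8:124949298-124949342, minus strand, 68 bases before the start): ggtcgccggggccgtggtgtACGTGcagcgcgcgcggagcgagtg
Egln2 (chr7:27166826-27166870, minus strand, 48 bases before the start): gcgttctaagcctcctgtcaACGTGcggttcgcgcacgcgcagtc
Egln3 (chr12:54204079-54204123, minus strand, 229 bases before the start): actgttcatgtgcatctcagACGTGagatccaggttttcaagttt
Vegfa (chr17:46025350-46025394, minus strand, 211 bases before the start): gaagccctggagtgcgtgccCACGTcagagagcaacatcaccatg
Thus all 3 Egln genes hold ACGTG before a start, while neither core was found in the windows of Vhl and Hif1an, and ACGTG was not found in that of Arnt, the second of Egln2 or the first of Vegfa. Matches after the start, in Egln2, are not printed. A match is a run of letters and was not shown to be bound in these cells.

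The libraries held 10298069 to 15090863 reads on listed genes, recovered from the steps of the deposited FPKM (fragments scaled to transcript length and library depth). Control replicates 1 and 3 were apart from the other 4 libraries, with 15003029 and 15090863 reads against 10298069 to 11701908, and with summed FPKM of 466619 and 466135 against 635111 to 680285. Control replicate 2 thus lay with the IGF1 libraries in both, and the part of depth in the results was not tested. Among the 3438 genes that differed by over 2-fold between control replicates 1 and 3 and the IGF1 libraries, it lay at a median of 80.1% of the way from the former to the latter (quartiles 67.7% and 91.4%). It goes against its label in this respect, and a mislabelled or mixed library cannot be told apart from a control that differed. Therefore the main results are given with and without it. That choice rests on the same values that are compared. Hence all p-values without control replicate 2 understate the spread between controls, and they serve as description only. A gene was called where its fold change exceeded 2 and its Benjamini-Hochberg adjusted p from limma was under 0.05. Of 12 HSC markers, 11 could be tested and none was called, with a summed level of 515 to 769 FPKM in controls and 520 to 535 FPKM in IGF1. Their levels varied, with Procr at 11.5 to 18.7 FPKM and Kit at 24.2 to 105 FPKM over all libraries. Others came down to under 1 FPKM, among them Slamf1 (0.736 to 2.41 FPKM), Fgd5 (0.277 to 1.68 FPKM) and Hoxb5 (0.279 to 0.691 FPKM). Mpo, a gene of myeloid progenitors, was present too, at 1613 to 1705 FPKM, as was Elane at 92.4 to 709 FPKM. Of 10 neutrophil and monocyte markers, 8 could be tested and 4 (Ngp, Camp, S100a8 and S100a9) were called lower, the summed list being at 2691 to 2817 FPKM in controls and 2778 to 2793 FPKM in IGF1. Of 5 endothelial markers, 3 could be tested and none was called, with a summed level of 28.0 to 55.7 FPKM in controls and 32.3 to 32.7 FPKM in IGF1. The summed B cell markers were at 90.7 to 296 FPKM in controls and 295 to 311 FPKM in IGF1, and none of the 5 tested of 7 was called. Of 6 megakaryocyte markers, 4 could be tested and Gp1bb was called higher, the list summing to 52.3 to 75.2 FPKM in controls and 93.7 to 104 FPKM in IGF1. None was called among the erythroid, T and NK cell and stromal markers with all libraries. Without control replicate 2, 5 HSC markers were called lower and 1 higher, 4 neutrophil and monocyte markers lower and 1 higher, 3 B cell markers higher and 3 megakaryocyte markers higher, and none of the erythroid, endothelial and stromal markers. In that setting Nkg7, of the T and NK cell list, was called higher, at 366, 776 and 356 FPKM in controls against 779, 767 and 787 FPKM in IGF1. These markers thus moved with the regulators called in that setting. The endothelial gene Cdh5 and the neutrophil gene Ly6g were listed at 0 in all IGF1 libraries. The part of these cell types in the results was not tested, and in bulk RNA fewer cells of a type and less RNA per cell cannot be told apart.

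Hif1a was at 20.9 and 19.5 FPKM in control replicates 1 and 3, and at 5.38 FPKM in control replicate 2. It was at 4.21, 4.87 and 4.47 FPKM in IGF1 replicates 1, 2 and 3. Thus every IGF1 library lay below every control library, control replicate 2 just above them, and the mean of the other controls was 4.47 times the IGF1 mean. The log2 fold change, on log2(FPKM + 1), was -1.37 (SE 0.48, 95% interval -2.55 to -0.18, adjusted p = 0.072 from limma). It was not called, since the adjusted p missed its threshold. The exact permutation test gave p = 0.1, the smallest that 3 libraries against 3 allow (2-sided). Hif1a was called lower without control replicate 2, at -1.94 (adjusted p = 2.14e-09 from limma). These values rest on 259 to 1660 reads of Hif1a per library.

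Arnt, which encodes the partner that every HIF alpha subunit needs, was at 12.1, 5.63 and 12.1 FPKM in control replicates 1, 2 and 3. It was at 4.35, 4.76 and 4.67 FPKM in IGF1. The groups did not overlap, and control replicate 2 again lay nearest to IGF1. This gave a log2 fold change of -0.90 (SE 0.29, 95% interval -1.60 to -0.20, adjusted p = 0.061 from limma), short of both thresholds. Arnt was called lower without control replicate 2, at -1.23 (adjusted p = 2.94e-08 from limma).

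Epas1, which encodes the HIF-2 alpha subunit, was near the limit of detection. It was at 0.222, 0 and 0.128 FPKM in the controls, from 19, 0 and 11 reads, and at 0.0302, 0.0165 and 0.0145 FPKM in IGF1, from 2, 1 and 1 reads. The 0 of control replicate 2 allows up to 3 reads, or 0.0486 FPKM, by counting error alone. Under the minimum of 1 FPKM in 3 libraries it was not tested, and the groups overlapped. Of the other HIF subunit genes and relatives, Hif3a was at 0.0197 to 0.285 FPKM, and Arnt2, Sim1 and Sim2 were listed at 0 in every library. Therefore Hif1a was the HIF alpha gene with the highest level in all libraries.

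**Figure D1:**
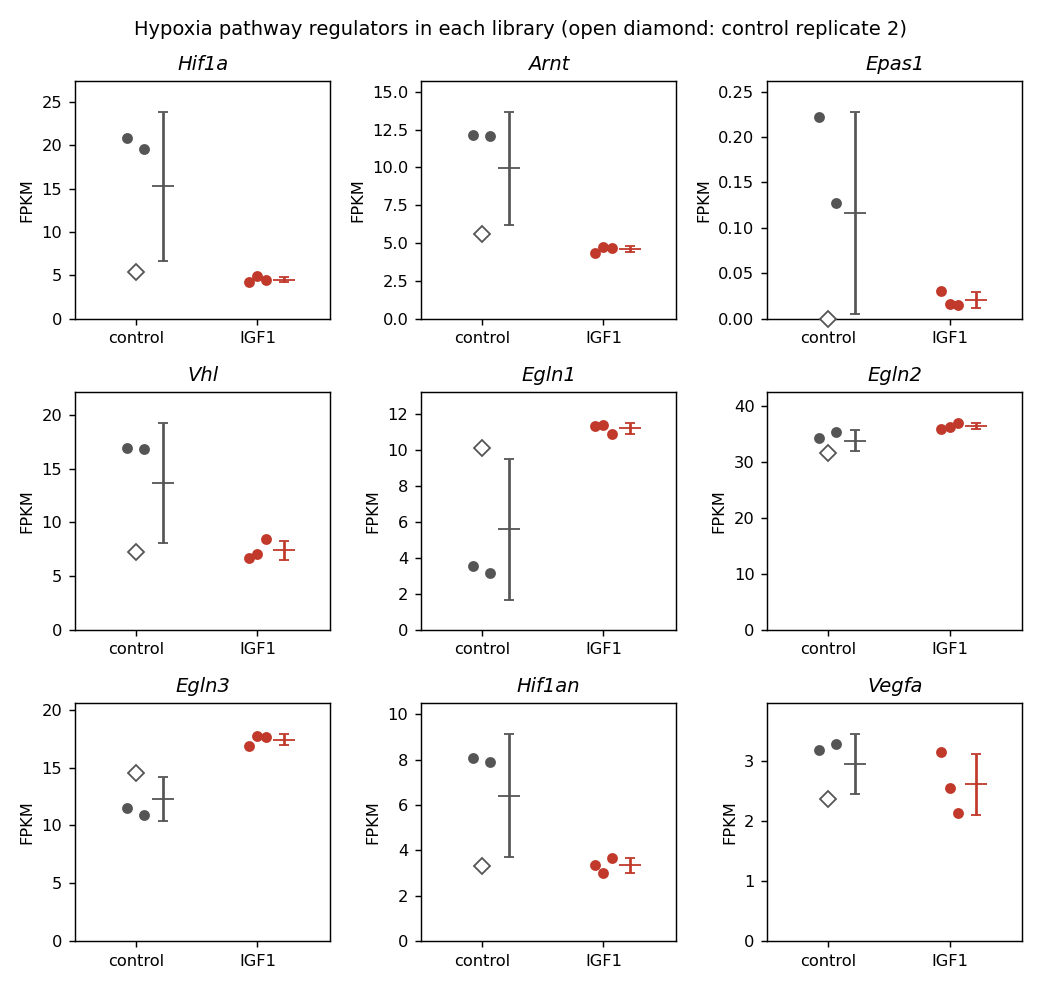
Levels of the 9 regulators in FPKM (vertical axes, each from 0) in the control and IGF1 libraries. Points are single libraries, with control replicate 2 as an open diamond, and the line and bar beside them are the mean and SD of 3 libraries. For Hif1a, Arnt, Vhl, Hif1an and Egln1 the open diamond sits with the IGF1 points rather than with the other controls.

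Among the prolyl hydroxylases, Egln1, the main oxygen sensor of the family in most tissues, had the largest difference. Egln1 was at 3.55, 10.1 and 3.15 FPKM in control replicates 1, 2 and 3. It was at 11.4, 11.4 and 10.9 FPKM in IGF1. The IGF1 libraries were all above the controls, at 3.35 times the mean of control replicates 1 and 3, and control replicate 2 was only a little below them. The log2 fold change was 1.04 (SE 0.39, 95% interval 0.10 to 1.98, adjusted p = 0.0777 from limma). Egln1 thus exceeded the fold threshold but not that of the adjusted p, and without control replicate 2 it was called higher, at 1.49 (adjusted p = 9.86e-09 from limma). It rests on 91 to 253 reads per library, the fewest of the Egln genes.

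Egln3, the most inducible member of the family in many cell types, was at 11.5, 14.5 and 10.9 FPKM in the controls. In the IGF1 libraries it was at 16.9, 17.8 and 17.6 FPKM. The groups did not overlap, and control replicate 2 lay near the middle between them, at 58.5% of the way to IGF1. This gave a log2 fold change of 0.48 (SE 0.13, 95% interval 0.15 to 0.81, adjusted p = 0.0523 from limma), and 0.60 without control replicate 2 (adjusted p = 1.97e-06), which is under the fold threshold in both cases.

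Egln2 was the most abundant of the 9 genes in every library, at 34.4, 31.7 and 35.3 FPKM in controls against 35.9, 36.4 and 37.0 FPKM in IGF1. The groups did not overlap, but by a narrow margin. The log2 fold change was 0.11 (SE 0.09, 95% interval -0.12 to 0.33, adjusted p = 0.357 from limma). Thus a 2-fold change of Egln2 lies outside the interval, whereas no change lies within it, and the sign turned (-0.22) once a trend on length and GC content was removed.

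Summed over the 3 hydroxylase genes, the level was 49.4, 56.4 and 49.4 FPKM in the respective controls against 64.1, 65.5 and 65.5 FPKM in IGF1 (exact permutation test, p = 0.1). Egln1 made up 7.17%, 18.0% and 6.37% of this sum in the controls. Its share was 17.7%, 17.4% and 16.6% in the IGF1 libraries, so that the share in control replicate 2 exceeded those in IGF1 (exact permutation test, p = 0.4). Egln2 made up 69.6%, 56.3% and 71.6% of the sum in the controls and 55.5% to 56.5% in IGF1. Thus Egln2 was the larger part of the sum in all libraries.

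Vhl, the substrate receptor of the ligase that marks hydroxylated HIF, was at 17.0, 7.24 and 16.8 FPKM in control replicates 1, 2 and 3. It was at 6.71, 7.08 and 8.41 FPKM in IGF1. Here control replicate 2 lay among the IGF1 libraries and the groups overlapped. This gave a log2 fold change of -0.72 (SE 0.33, 95% interval -1.52 to 0.08, adjusted p = 0.116 from limma), and it was -1.09 without control replicate 2 (adjusted p = 5.86e-07), where it was called lower.

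Hif1an was at 8.07, 3.29 and 7.89 FPKM in controls against 3.34, 2.996 and 3.66 FPKM in IGF1. Its pattern was that of Vhl, with control replicate 2 inside the range of IGF1. The log2 fold change was -0.70 (SE 0.31, 95% interval -1.46 to 0.06, adjusted p = 0.112 from limma), and it was -1.05 without control replicate 2 (adjusted p = 5.42e-07), where it was called lower.

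Vegfa, which encodes the angiogenic ligand VEGF-A, was at 3.18, 2.37 and 3.27 FPKM in controls against 3.15, 2.54 and 2.14 FPKM in IGF1, from 114 to 220 reads. With all libraries the groups overlapped, and control replicate 2 lay among the IGF1 libraries, whereas the other controls were just above all of them. It had a log2 fold change of -0.13 (SE 0.16, 95% interval -0.52 to 0.26, adjusted p = 0.513 from limma), and of -0.24 without control replicate 2 (adjusted p = 0.0658), and was called in neither. The sign depended on the scaling, since the value was 0.075 after scaling to the 75th percentile of each library.

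None of the 8 regulators tested was called with all libraries, where 6.61% of the 10449 genes tested were called. At an unadjusted p under 0.05, 4 of the 8 passed (Hif1a, Arnt, Egln1 and Egln3), as did 53.4% of all genes tested. No member had an adjusted p under 0.05 in the main setting, against 20.4% of all genes, and without control replicate 2 this p was passed by 6 of the 8, against 88.5%. With all libraries Egln3 passed it after quantile normalization (0.0478), 75th percentile scaling (0.0430) and removal of the length and GC trend (0.0497, limma). Egln2 passed it with 75th percentile scaling (0.0418), and both stayed under the fold threshold. The groups did not overlap for 5 of the 8 (62.5%), near the 59.4% of all genes, with IGF1 higher in 3 (21.9% of all genes) and lower in 2 (37.4%). Without control replicate 2, 5 of the 8 were called (Hif1a, Arnt, Vhl and Hif1an lower and Egln1 higher), against 32.9% of all genes (12.3% higher and 20.6% lower). The median log2 fold change was -0.41 over the 8 genes and -0.18 over all genes tested. For the 5 genes called without it, control replicate 2 lay 80.1% to 102% of the way from the other controls to IGF1.

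**Figure D2:**
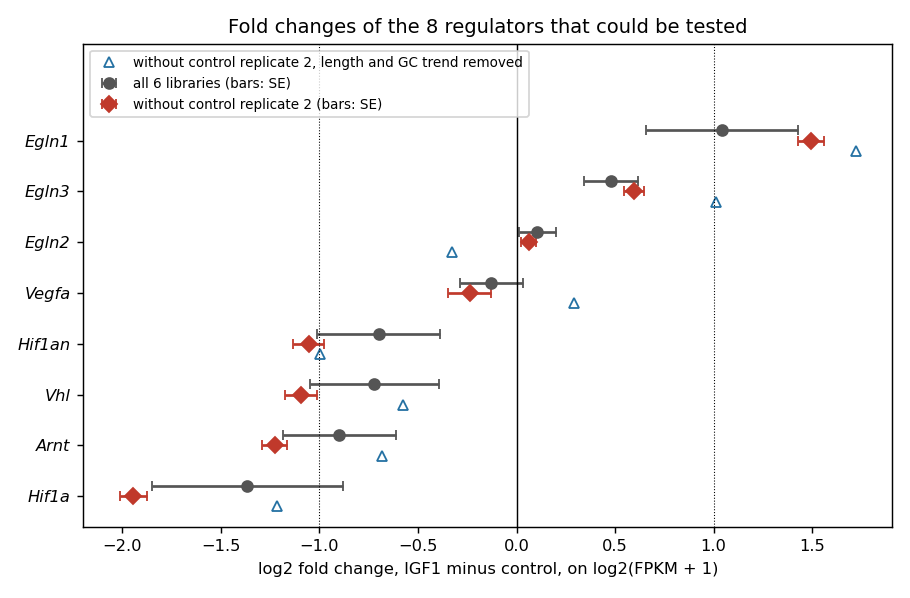
Log2 fold changes (IGF1 minus control) of the 8 regulators tested, with all 6 libraries (circles), without control replicate 2 (diamonds) and without it after removal of the length and GC trend (triangles). Bars are standard errors, and dotted lines mark a 2-fold change. Hif1a (-1.94) and Egln1 (1.49) stand at the ends without control replicate 2, while Egln2 and Vegfa lie near 0 and change sign once the trend is removed.

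Removing a trend on transcript length and base composition moved several of these values. Taking the longest transcript of each of the 9 genes, Hif1a has the lowest GC content (41.3%, 4724 bases) and Egln2 the highest (62.2%, 2107 bases). After the trend was removed from each library, the log2 fold change of Hif1a was -0.81, that of Arnt -0.50 and that of Vhl -0.34. That of Egln1 was 1.17 and that of Egln3 0.79. Scaled instead to the 75th percentile, Vhl was at -0.47, Egln3 at 0.73 and Egln2 at 0.37. With that scaling and without control replicate 2, only Hif1a and Egln1 of the 8 were called, where 3117 of the 10449 genes tested were called. Thus with the trend removed the values of Hif1a, Arnt and Vhl shrank by over 1.5 times, while that of Egln3 grew by over 1.5 times. The part of length and base composition in the differences was not tested further. Without control replicate 2 and with the trend removed, Hif1a (-1.21) was called lower and Egln1 (1.72) and Egln3 (1.01) higher, 3 of 8 against 20.7% of all genes, of which 9.25% were lower and 11.4% higher (adjusted p = 1e-07, 9.41e-09 and 6.41e-08 from limma). Arnt (-0.68), Vhl (-0.57) and Hif1an (-0.998) then fell short of the fold threshold, and Egln2 (-0.33) and Vegfa (0.29) had the opposite sign.

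Ratios between regulators within a library do not depend on its scaling, though they share the dependence on length and GC content. The ratio of Egln1 to Hif1a was 0.170, 1.89 and 0.161 in the respective controls against 2.70, 2.34 and 2.44 in the IGF1 libraries. Hence Hif1a exceeded Egln1 in control replicates 1 and 3, and Egln1 exceeded Hif1a in the other 4 libraries. The ratio of Egln3 to Hif1a was 0.551, 2.70 and 0.557 in the controls and 4.003, 3.64 and 3.94 in IGF1. The ratio of Vhl to Hif1a was 0.813, 1.35 and 0.860 in the controls and 1.59, 1.45 and 1.88 in IGF1. For Hif1an the ratio to Hif1a was 0.386, 0.612 and 0.404 in the controls and 0.792, 0.615 and 0.819 in IGF1. All 4 ratios had groups that did not overlap, the last by 0.615 against 0.612. The exact permutation test gave p = 0.1 for each (Benjamini-Hochberg adjusted p = 0.143 over the 10 ratios and sums computed). All 4 are taken over Hif1a, whose own groups did not overlap, so they are not separate results. Of all single genes tested, 59.4% had groups that did not overlap. The ratio of Hif1a to its partner Arnt was 1.72, 0.956 and 1.62 in the controls and 0.967, 1.02 and 0.957 in IGF1, and control replicate 2 lay below the IGF1 libraries (exact permutation test, p = 0.4). 

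**Figure D3:**
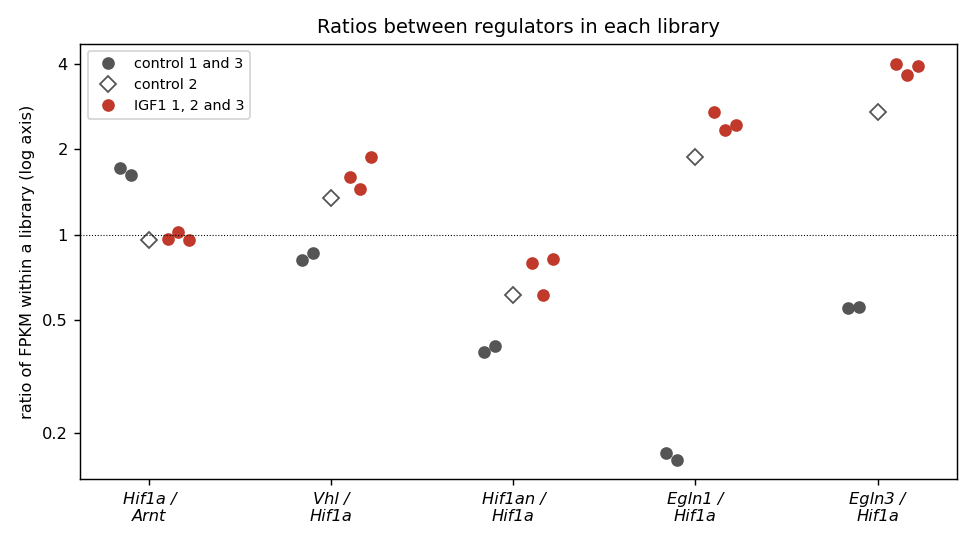
Ratios of FPKM between regulators within each library (vertical log axis), with control replicates 1 and 3 as grey points, control replicate 2 as an open diamond and the IGF1 libraries as red points. The ratios of Egln1 and Egln3 to Hif1a are below 1 in control replicates 1 and 3 and above 1 in the other 4 libraries.

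The order of levels differed between these libraries. In control replicates 1 and 3 it ran from Egln2 through Hif1a, Vhl, Arnt, Egln3 and Hif1an to Egln1 and Vegfa, with the last pair in either order. In the IGF1 libraries and control replicate 2 it ran from Egln2 through Egln3, Egln1 and Vhl to Arnt and Hif1a, and then to Hif1an and Vegfa. Only in IGF1 replicate 2 was Hif1a above Arnt. Epas1 was lowest in all libraries. In IGF1, Arnt (4.596 ± 0.215 FPKM, SD, n = 3) and Hif1a (4.52 ± 0.335) did not differ beyond their spread, nor did Hif1an (3.33 ± 0.332) and Vegfa (2.61 ± 0.511), while Egln3 (17.4 ± 0.485) and Egln1 (11.2 ± 0.291) were apart. Over the 3 controls the spread was wide, so that Hif1a (15.3 ± 8.59 FPKM), Vhl (13.7 ± 5.57), Egln3 (12.3 ± 1.94) and Arnt (9.94 ± 3.73) did not differ beyond it. The 3 genes whose profiles over the 6 libraries were most like that of Hif1a, by root mean square difference of centred log2(FPKM + 1) among 5225 genes, were Samsn1 (0.0412), Acly (0.0457) and Tbc1d15 (0.0460). Those most like Vegfa were H2-Eb1 (0.0476), Znhit6 (0.0565) and Rnf40 (0.0752).

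The genes around these regulators were taken from 6 lists with 85 genes, of which 66 could be tested. The Vhl ligase is built from Tceb1 and Tceb2 (elongins C and B), the scaffold Cul2 and the RING protein Rbx1. Tceb2 was at 285, 730 and 284 FPKM in controls against 1059, 1006 and 1073 FPKM in IGF1, a log2 fold change of 1.42 (SE 0.39, adjusted p = 0.0514 from limma). Cul2 was at 24.99, 5.06 and 24.9 FPKM in controls against 4.98, 4.68 and 4.84 FPKM in IGF1, a log2 fold change of -1.46 (SE 0.58, adjusted p = 0.0887). The subunits thus lay on opposite sides, although none of the 4 was called with all libraries. Rbx1 (0.46, adjusted p = 0.17) and Tceb1 (0.06, adjusted p = 0.806) had groups that overlapped. Tceb2 (1.88) was called higher and Cul2 (-2.15) lower without control replicate 2. With the length and GC trend removed the value was 0.13 for Tceb2, whose longest transcript has 581 bases, -0.77 for Cul2, 1.10 for Rbx1 and 0.51 for Tceb1. Without control replicate 2 as well, Rbx1 (1.56) was called higher and Cul2 (-1.25) lower, while Tceb2 (0.12) and Tceb1 (0.79) were not called, so that the subunit called higher depended on this setting.

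Of 15 HIF cofactors and stability factors, 14 could be tested, 7 being above 0 and 7 below, with a median of -0.02 and none called. The coactivator Ep300 was at 1.79, 6.84 and 1.68 FPKM in controls against 6.14, 6.48 and 5.73 FPKM in IGF1 (0.87, adjusted p = 0.137 from limma). Its relative Crebbp was at 4.46, 10.1 and 4.05 FPKM in controls against 11.4, 10.97 and 10.8 FPKM in IGF1 (0.84, adjusted p = 0.0782). Both were called higher without control replicate 2, Ep300 at 1.38 (adjusted p = 4.43e-08) and Crebbp with an adjusted p of 3.69e-08 from limma. Of the 14 genes, 3 were called higher in that setting, against 12.3% of all genes, and 3 lower, against 20.6%. The third called higher was Rack1 (1.35). The 3 called lower were Siah1a (-1.21) and Siah1b (-1.57), which encode ubiquitin ligases related to Siah2, and the deubiquitinase gene Usp33 (-1.78). With the trend removed too, Ep300 (1.11), Rack1 (1.83) and Siah1b (-1.39) were still called, and Crebbp (0.82), Siah1a (-0.74) and Usp33 (-0.98) were not. Cited2, which competes with HIF for these coactivators, was at 91.8 to 102 FPKM in all libraries (0.02, adjusted p = 0.886), and the chaperone gene Hsp90aa1 had a value of 0.05 (adjusted p = 0.845). The value of Hsp90aa1 was 0.70 with the length and GC trend removed, and without control replicate 2 as well it was called higher, at 1.09. Siah2, a ubiquitin ligase that acts on prolyl hydroxylases, was a gene in which control replicate 2 stayed with the other controls. It was at 10.5, 10.8 and 10.1 FPKM in controls against 15.5, 16.04 and 14.7 FPKM in IGF1, a log2 fold change of 0.52 (SE 0.10, adjusted p = 0.0367), under the fold threshold.

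Of 9 VEGF ligands and receptors, 3 could be tested and none was called. Vegfb was at 16.3 to 20.5 FPKM in controls against 21.7 to 23.6 FPKM in IGF1 (0.35, adjusted p = 0.0744 from limma), and -0.42 with the length and GC trend removed. Vegfc, a ligand best known in lymphatic vessels, was at 2.52, 3.64 and 2.47 FPKM in controls against 1.72, 1.17 and 1.81 FPKM in IGF1 (-0.59, adjusted p = 0.0535). Its groups did not overlap, and its value was -0.08 with the trend removed and 0.20 without control replicate 2 as well. The coreceptor gene Nrp1 overlapped between groups (0.21, adjusted p = 0.523), with a value of 0.89 once the trend was removed, and was called higher (1.41) without control replicate 2 as well. The VEGF receptor genes Flt1 and Kdr were at 0 to 0.0872 and 0.222 to 0.601 FPKM, under the minimum for a test.

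The HIF target genes were split into 20 genes of glucose metabolism, all tested, and 33 others, of which 25 could be tested. Of these 45 genes, 34 (75.6%) had a log2 fold change below 0, against 59.6% of all genes tested, and the median was -0.64, against -0.18. Ero1l, Bnip3, Car12 and Ccng2 were called lower and none higher, that is 8.89% against 4.63% of all genes called lower. Without control replicate 2, 21 of the 45 (46.7%) were called lower, against 20.6% of all genes, and 1 (2.22%) was called higher (Higd1a, 1.18), against 12.3%. With 75th percentile scaling the median of the 45 genes was -0.36, against 0.06 for all genes, and with the length and GC trend removed it was -0.46, against -0.04. Since no set test was run, the lists are described by these counts alone.

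Ero1l, an oxidase of protein folding, was at 11.95, 5.51 and 12.7 FPKM in controls against 2.94, 2.96 and 2.30 FPKM in IGF1, a log2 fold change of -1.50 (SE 0.31, adjusted p = 0.038 from limma). Bnip3, which encodes a mitophagy receptor, was at 42.1, 20.8 and 45.4 FPKM in controls against 13.6, 13.7 and 12.6 FPKM in IGF1 (-1.30, SE 0.30, adjusted p = 0.0425). In both genes, and in Car12 (-1.27, adjusted p = 0.0352), a carbonic anhydrase, and Ccng2 (-1.19, adjusted p = 0.038), an atypical cyclin, control replicate 2 was under the other controls yet above every IGF1 library. With the length and GC trend removed the values were -0.90 for Ero1l, -0.98 for Bnip3, -0.84 for Car12 and -0.63 for Ccng2, and none of the 45 genes was called.

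Among the glycolytic targets, Ldha, which encodes lactate dehydrogenase A, was at 1032, 786 and 1051 FPKM in controls against 481, 484 and 482 FPKM in IGF1. Its log2 fold change was -0.97 (SE 0.18, adjusted p = 0.0355 from limma), just under the fold threshold, and -0.97 with the length and GC trend removed. Pgk1, phosphoglycerate kinase, was at 168, 171 and 171 FPKM in controls against 117, 118 and 126 FPKM in IGF1 (-0.50, SE 0.10, adjusted p = 0.0368). Both genes had an adjusted p under 0.05, and in Pgk1 control replicate 2 lay with the other controls. Pgk1 was at -0.22 with 75th percentile scaling, and at -0.15 with that and without control replicate 2, where Ldha was at -0.76. Ldha was called lower (-1.11) where control replicate 2 alone was left out. Pdk1, which restrains entry of pyruvate into mitochondria, was at 38.9, 10.5 and 39.6 FPKM in controls against 9.86, 10.4 and 9.74 FPKM in IGF1 (-1.27, adjusted p = 0.0864), and was called lower (-1.87) without control replicate 2. The glucose transporter gene Slc2a1 was at 25.5, 7.40 and 25.2 FPKM in controls against 10.7, 11.8 and 10.96 FPKM in IGF1, so that control replicate 2 lay below IGF1 (-0.57, adjusted p = 0.326). Slc2a1 was called lower without that library (-1.12, adjusted p = 2.28e-08 from limma), but not with the trend removed too (-0.76). 

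Of the remaining targets named by rule, the chemokine receptor gene Cxcr4 was at 8.59, 7.25 and 10.3 FPKM in controls against 5.31, 5.29 and 4.395 FPKM in IGF1 (-0.69, SE 0.16, adjusted p = 0.0429 from limma), under the fold threshold. The values were -0.68 for Ndrg1 (adjusted p = 0.127), 0.21 for Ddit4, an inhibitor of mTORC1, (adjusted p = 0.537) and 0.57 for Ankrd37 (adjusted p = 0.113), none of them called with all libraries. Leaving out control replicate 2, Ndrg1 was called lower (-1.05) and the sign of Ddit4 turned (-0.10). With the trend removed the values were -0.34 for Ndrg1, -0.11 for Ddit4 and 0.04 for Ankrd37. Of the 45 targets, 11 had values above 0. Among them Zfp395, a transcription factor gene, was at 4.68, 4.69 and 5.27 FPKM in controls against 8.49, 9.06 and 8.51 FPKM in IGF1 (0.72, adjusted p = 0.029), with control replicate 2 among the controls, and was under the fold threshold. Hk2, which encodes a hexokinase, was at 6.02, 8.599 and 6.35 FPKM in controls against 9.67, 10.5 and 10.1 FPKM in IGF1 (0.48, adjusted p = 0.0608), and its groups did not overlap. Thus targets lay on both sides of 0 in these libraries, Egln1, Egln3, Zfp395 and Hk2 above it and Ero1l, Bnip3, Ldha and Pgk1 below.

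**Figure D4:**
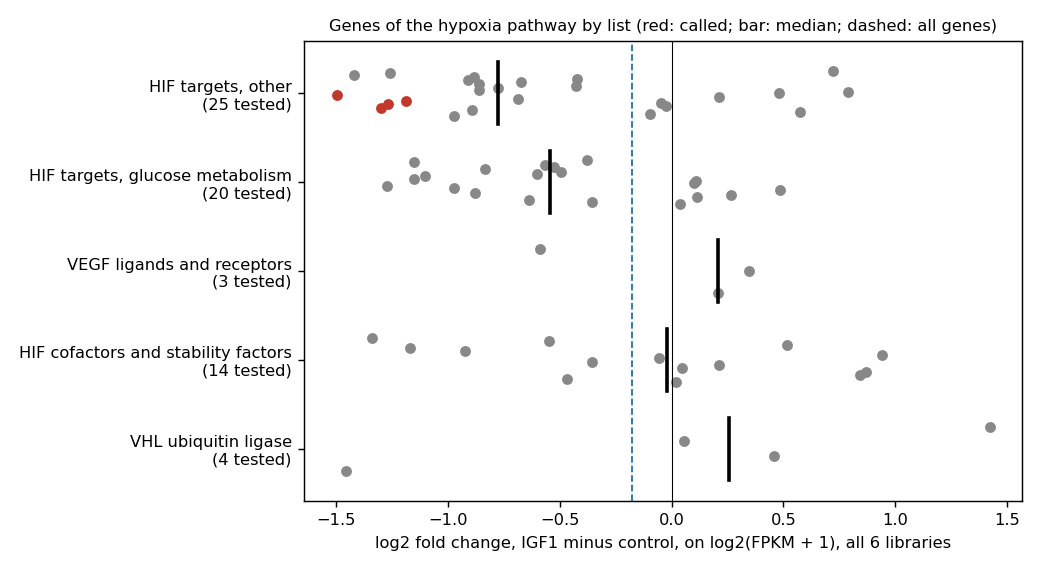
Log2 fold changes (IGF1 minus control, all 6 libraries) of the tested genes of each list, 1 point per gene, with the 4 called genes in red. Black bars are list medians and the dashed line is the median of all genes tested (-0.18), below which the medians of both HIF target lists lie.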

How the data were processed

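HSCs sorted from mouse bone marrow were sequenced in 3 control and 3 IGF1 libraries (TruSeq stranded mRNA). The submitters' processing notes name fastp, HISAT2, StringTie and GRCm38, and the study's methods name RSEM. The deposited values have no stated unit and were taken as FPKM, since 15617 of 15640 genes gave whole reads (tolerance 0.02 reads) once scaled by relative depth, against 0.2% of jittered genes. Of the rows, 0 have a mitochondrial (mt-) name. Genes with at least 1 FPKM in 3 libraries entered limma 3.58.1 as log2(FPKM + 1) (R 4.3.3, variance trend), on a scale that understates changes of low genes, and were called at a fold change over 2 and adjusted p under 0.05. The code was tested on simulated data. Length and GC content of the longest GENCODE M21 transcript, found for 99.1% of genes tested, were removed with splines of 5 degrees of freedom. Members and lists were chosen with earlier results of these data known. Named were all members, the HIF paralogs, the Vhl ligase, 18 preset genes, called list genes and the nearest profiles of Hif1a and Vegfa. Higd1a, Vegfc, Rack1, Siah1a, Siah1b, Usp33, Zfp395, Hk2 and the cell type markers were named after their values were seen. Alternatives were other scalings, filters, pseudocounts and variance models, a replicate block and leaving out each library.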

Additional observations from a re-analysis of the deposited data

How the results depend on the processing

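With all libraries 691 genes, 0 of the 8 regulators and 4 of the 45 HIF targets were called. Without control replicate 2 these were 3438, 5 and 22, and without any other single library 0, 0 and 0 (limma), with 685 to 1181 genes and 0 regulators then at an unadjusted p under 0.05 and over 2-fold. Library weights, at 0.0137 for control replicate 2 against 1.90 to 3.64 for the others, gave 3435, 5 and 22. The replicate block gave 0 genes, 0 regulators and 0 targets, with 1780 genes and 2 regulators at an unadjusted p under 0.05 and over 2-fold. Same-numbered libraries did not deviate together (correlations -0.0572, -0.0503 and 0.00567). With so few libraries, and control replicate 2 apart from the other controls, these values cannot show whether the numbers pair them. All genes called came to 374 without a filter, 223 with a pseudocount of 5 and 314 with the length and GC trend removed, and the targets to 2 with that pseudocount and 0 without the trend. Chosen after the data were seen, 75th percentile scaling without control replicate 2 gave 3117 genes, 2 regulators (Hif1a and Egln1) and 15 targets, and removal of the length and GC trend without it 2142, 3 and 14. Of all calls, 30.0% were higher, and 65.3% with 75th percentile scaling, 48.8% with quantile normalization and 51.0% with the trend removed, the median of all genes moving from -0.18 to 0.06, -0.02 and -0.04. Vegfa was 0.075 with 75th percentile scaling, 0.0195 with it and without control replicate 2, 0.25 with the trend removed and 0.29 with that and without control replicate 2. Egln2 was -0.22 with the trend removed and -0.33 without that library too. Of 142 values of single regulators under the alternatives, these 6 reversed, 121 kept their sign and were not called, and 15 were called. Among the 121, some crossed the fold or the adjusted p threshold alone, such as Hif1a at -0.98 with a pseudocount of 5. The causes were not tested. At 10298069 to 15090863 reads, Epas1 was too low to compare.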
